A study of Mus musculus with 32 samples.

Results

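The comparison described here is Khk knockout (KO) against wild type (WT) in the duodenum, taken as all genes of the deposited duodenum table and its 8 libraries of the 32 in the series. The 4 Khk KO and 4 WT libraries came from polyadenylated RNA of the duodenum of male mice, the first stretch of small intestine below the stomach. Both groups are male, and genotype is the only difference the labels give. The labels used here name no knockout allele, strain, age, diet or time of tissue collection, and they do not say whether the sampled organs came from the same animals. The stated purpose of the series was to learn how fructose and ketohexokinase bear on iron balance.

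Ketohexokinase, the product of Khk, phosphorylates fructose to fructose-1-phosphate and so opens the fructose breakdown pathway. Duodenal and jejunal enterocytes express it strongly, and they clear much of a small dietary fructose load before it reaches the liver. The duodenum is also the main site of dietary iron uptake, secretes hormones such as cholecystokinin and secretin from scattered enteroendocrine cells, and carries plasma cells that make antibody in the lamina propria.

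The table held 1567 genes, each with an unadjusted p of at most 0.0499 in the authors' test, out of 15615 genes over which the authors had adjusted. Of the 1567, 137 were listed with an adjusted p of exactly 1 and had mean normalised counts of at most 8.93, against at least 9.21 in the rest. They were taken as not adjusted, which left 1430 genes for the counts below, 9.16% of the genes adjusted. Reads in the table's genes ranged from 1722220 to 3549978 per library. Replicates differed far beyond counting noise, with a chi-square per degree of freedom between 17.1 and 287 over pairs of one genotype. Because absence from the table means only that the authors' unadjusted p was not under 0.05 or that the gene was not tested, the level of such a gene was not examined here. That applies to every duodenal segment marker on the list used (0 of 9 in the table, among them Gata4 and Pdx1), so the labelled segment was not checked. The enterocyte genes Sis, which encodes sucrase-isomaltase, and Apoa1, which encodes a lipoprotein of chylomicrons, had at least 28685 and 120351 normalised counts in every library.

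WT replicate 1 stood apart from the other 7 libraries, in a way that bears on many values below. Of the 842 genes with a lower mean in Khk KO (5.39% of those adjusted), 713 (84.7%) had their highest value of all 8 libraries in WT replicate 1. Of the 588 genes with a higher mean (3.77%), 415 (70.6%) had their lowest value there. Values without that library are given beside the results described in most detail.

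By the authors' adjusted p under 0.05, 35 genes were called, 0.224% of those adjusted, of which 20 rose (0.128%) and 15 fell (0.0961%) in Khk KO. In what follows a gene is said to rise or fall only where it was so called, and other table genes are given by their values. The called genes comprised 19 protein-coding genes (6 up, 13 down), 14 immunoglobulin genes (all up) and 2 short genes annotated as microRNA (both down). Genotypes did not overlap in 34 of the 35, against 652 of the 1430 table genes (45.6%), a table selected by p. edgeR's quasi-likelihood test with Benjamini-Hochberg adjustment over the same 15615 genes called 1 gene, Khk (0.00640%), while 914 genes had an unadjusted p under 0.05. DESeq2 called 30 genes, 26 of them among the authors' 35, and the authors' calls it did not share were Cbr3, Ces1g, Gm24270, Gprin3, Ighg3, Ighv1-84, Rps27rt, Snrpe and Spc24. Without WT replicate 1, DESeq2 called 50 genes, 28 of them among the 35, and here the authors' calls it did not share were Rps27rt and the immunoglobulin genes Ighv6-6, Igkv1-117, Igkv14-126, Igkv4-53, Igkv4-59 and Igkv4-68. These are bulk tissue measurements, in which fewer cells of a type and less RNA per cell cannot be told apart.

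Khk fell most of all protein-coding genes. Its normalised counts in Khk KO replicates 1 to 4 were 640.0, 616, 736 and 611, and in WT replicates 1 to 4 they were 24008, 10952, 12314 and 9414. Every KO library lay far below every WT library, and WT replicate 1 was the highest. The mean was 651 ± 58.1 in Khk KO and 14172 ± 6663 in WT (SD, n = 4), so that 4.59% of the WT level remained. The log2 fold change was -4.44 ± 0.32 (SE), with an adjusted p of 0.00438 in edgeR's quasi-likelihood test, and -4.06 without WT replicate 1. Without KO replicate 2 the edgeR adjusted p was 0.0727. An exact two-sided permutation test over the 35 distinct splits gave p = 0.0286, the smallest this design allows. The gene (ENSMUSG00000029162) lies at chr5:30921431-30931248 on the plus strand of GRCm38, and its values match the genotype labels in all 8 libraries. Of the table's other genes within 10 Mb of Khk, 3 were higher and 7 lower in Khk KO, and 0 were called, while all 10 had an unadjusted p under 0.05, as every gene of the table does. The histone methyltransferase homologue Kmt2e, at 0.74 on the log2 scale, had the smallest p of the 10.

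Fold change followed gene length over the table, and many of the changes described here were set against genes of similar length. Over the 1202 coding genes whose mean reached 10 normalised counts, the share that was higher in Khk KO climbed from 4.98% in the shortest quintile of length through 15.8%, 37.5% and 60.0% to 78.8% in the longest. The median log2 fold change over the same quintiles went from -0.56 through -0.45, -0.33 and 0.29 to 0.34. Genes higher in Khk KO had a median length of 5575 bases, and genes lower in Khk KO one of 2227 bases. Across genes, which are not independent replicates and share the same 8 libraries, Spearman's rho between length and fold change was 0.54.

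**Figure D1:**
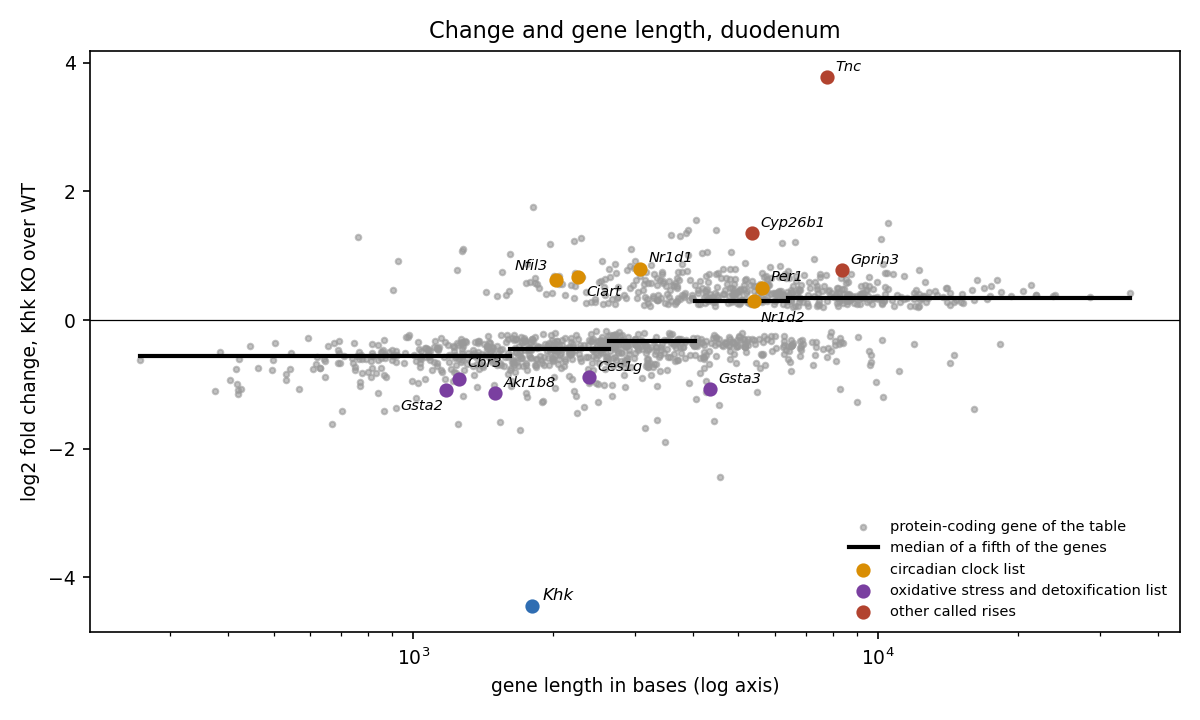
Log2 fold change (Khk KO over WT, vertical axis) against gene length in bases (horizontal log axis) for protein-coding genes of the duodenum table, with black bars for the median of each length quintile over the span of that quintile. Medians pass from -0.56 in the shortest to 0.34 in the longest quintile, while Khk at -4.44 and Tnc at 3.77 lie far from genes of their length.

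The same trend was then described library by library. The deviation from the gene mean changed by -0.356 on the log2 scale per doubling of length in WT replicate 1, against -0.061, -0.082 and 0.004 in WT replicates 2, 3 and 4. In Khk KO replicates 1 to 4 the slope was 0.179, 0.055, 0.103 and 0.158. Slopes of the KO libraries thus all lay above those of the WT libraries, with WT replicate 1 the farthest out. These are the same genes, each chosen for a difference between genotypes, and the deviations are taken from the mean of all 8 libraries. The separation of slopes by genotype therefore restates the trend over genes and adds nothing to it. Once the length curve of each library had been taken out, the quintile medians were -0.07, -0.09, -0.17, 0.19 and 0.06. Such a curve also removes any genotype effect that follows length, and it was drawn on genes selected by p.

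**Figure D2:**
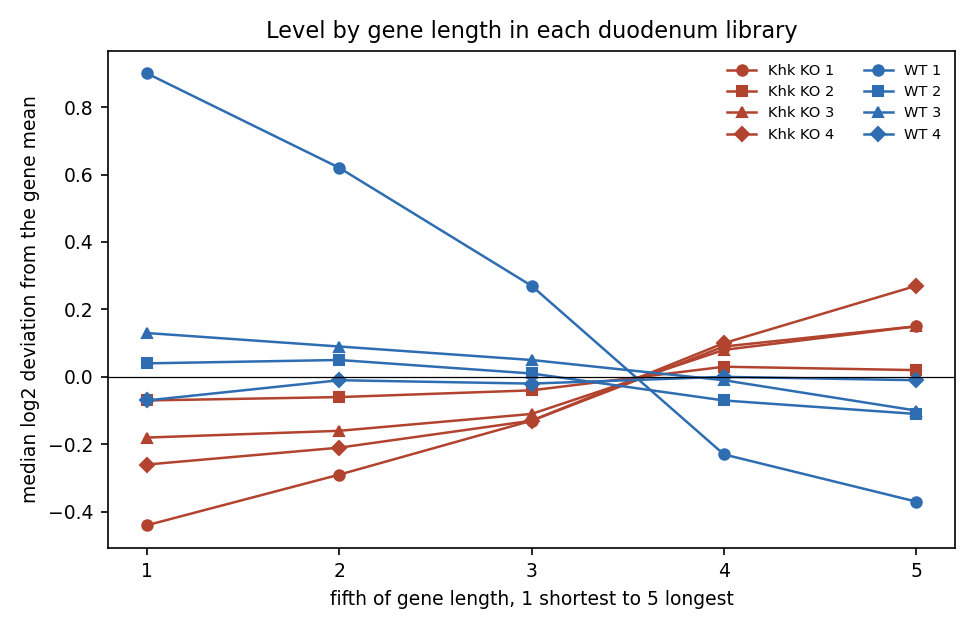
Median log2 deviation of each library from the gene mean (vertical axis) by quintile of gene length (horizontal axis, 1 shortest to 5 longest), with a line per library, red for Khk KO and blue for WT. WT replicate 1 runs from 0.90 in the shortest to -0.37 in the longest quintile, and the other WT lines stay between -0.11 and 0.13.

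Tnc, which encodes the matrix glycoprotein tenascin-C that appears during tissue remodelling, showed the largest rise of the 6 protein-coding genes called as higher. Its normalised counts were 389, 597, 301 and 602 in Khk KO replicates 1 to 4 and 12.4, 35.6, 51.9 and 37.6 in WT replicates 1 to 4. All KO libraries were several times above all WT libraries, whose lowest was replicate 1. Means of 472 ± 151 and 34.4 ± 16.4 (SD, n = 4) gave a 13.7-fold difference, or 3.77 ± 0.41 (SE) on the log2 scale, with an adjusted p of 0.0684 in edgeR's quasi-likelihood test and 1.86e-24 in the authors' deposited table. Tnc spans chr4:63959785-64047015 on the minus strand, and the 200 coding genes of the table closest to its 7772 bases had a median of 0.34 on the log2 scale, with all of them below Tnc. With the length trend taken out its log2 fold change was 3.57 (edgeR adjusted p 0.0434), and without WT replicate 1 it was 3.51 (edgeR adjusted p 0.0261).

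Tnc was 1 of 5 table genes among the 49 listed matrix and remodelling genes, all of them higher in Khk KO and all lowest in WT replicate 1. The others were Lama2 and Lama3, which encode laminin chains, the gelatinase gene Mmp9 and the integrin gene Itga8, with log2 fold changes of 0.63, 0.71, 0.61 and 0.48, none of them called. Itga8 was at 0.29 without WT replicate 1. None of the fibroblast and telocyte, smooth muscle or interstitial cell of Cajal markers was in the table (0 of 18, 0 of 15 and 0 of 6). Their part in the Tnc result was not tested.

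The other protein-coding genes that rose had a range of roles. Cyp26b1, which encodes a retinoic acid hydroxylase, read 91.9, 62.2, 118 and 145 normalised counts in Khk KO and 40.1, 41.6, 46.5 and 35.5 in WT, higher by 1.35 ± 0.27 (SE) on the log2 scale. Cyp26b1 was the only table member of the 13 listed retinoid genes, and its lowest KO library lay above its highest WT library. Its rise stood above 99.5% of the 200 genes of similar length and was 1.23 with the length trend taken out.

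Gprin3, a regulator of neurite outgrowth, read 621, 523, 566 and 598 in Khk KO and 218, 351, 361 and 413 in WT. The genotypes did not overlap, and WT replicate 1 was the lowest. In this gene of 8339 bases, a log2 fold change of 0.78 ± 0.19 (SE) became 0.55 with the length trend taken out. Serpina3f, from a family of serine protease inhibitors, rose 2.42-fold to 115 ± 37.2 (SD, n = 4), and Gm5431 rose 2.56-fold to 93.9 ± 14.4. Both changed little when WT replicate 1 was left out, with log2 fold changes of 1.19 and 1.27. With the length trend taken out the values were 1.53 and 1.37.

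**Figure D3:**
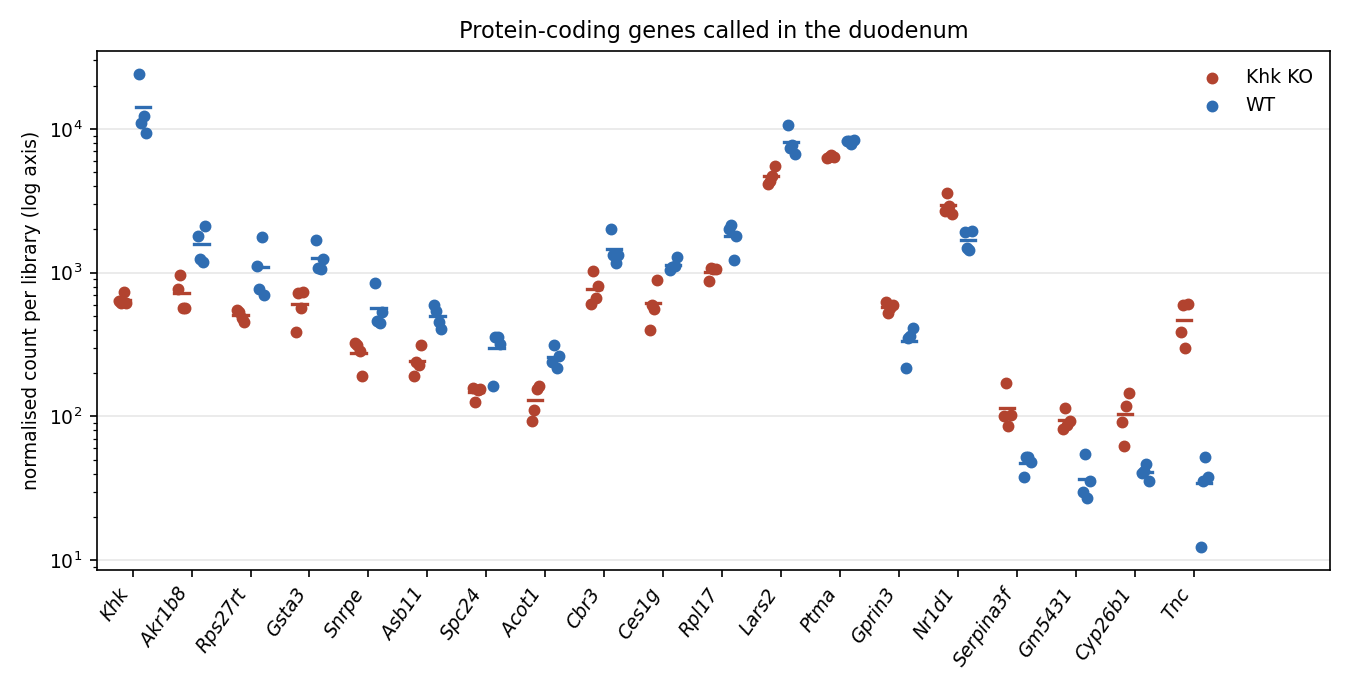
Normalised counts (vertical log axis) of the 19 protein-coding genes called in the duodenum, with a dot per library and a bar at the mean of 4 libraries, red for Khk KO and blue for WT. In every one of the 19 genes the 4 KO dots lie to one side of the 4 WT dots, with Khk from 611 to 736 in KO against 9414 to 24008 in WT.

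Circadian clock genes in the table were all higher in Khk KO. The clock is a loop in which CLOCK and BMAL1 bind E-boxes and switch on their own repressors, and REV-ERB proteins, the products of Nr1d1 and Nr1d2, in turn repress Bmal1. Of 21 listed clock genes 5 were in the table, all 5 higher, 1 of them called, with a median log2 fold change of 0.62 beside -0.33 for the whole table. With the length trend taken out all 5 stayed higher with a median of 0.93, and without WT replicate 1 the median was 0.51.

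Nr1d1 was the called clock gene, at 2690.0, 3599, 2935 and 2568 normalised counts in Khk KO replicates 1 to 4 and 1916, 1475, 1435 and 1948 in WT replicates 1 to 4. All KO libraries lay above all WT libraries. The rise was 1.74-fold, from 1693 ± 276 to 2948 ± 460.1 (SD, n = 4), with an adjusted p of 0.838 in edgeR's quasi-likelihood test and 0.00195 in the authors' deposited table. On the log2 scale Nr1d1 was higher by 0.80 ± 0.16 (SE), against a median of -0.36 over genes of similar length, of which 96.5% lay below it.

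Ciart, which encodes a repressor of CLOCK and BMAL1, read 227, 229, 229 and 228 in Khk KO and 202, 113, 117 and 144 in WT. The KO libraries were nearly alike, and the WT library closest to them was replicate 1. The difference was 0.67 on the log2 scale, and 0.87 without that library. Per1, a core repressor, read 1601, 1378, 1788 and 2039 in Khk KO against 1030.4, 1229, 1087 and 1449.8 in WT, with an overlap between KO replicate 2 and WT replicate 4. Nr1d2, at 1705 ± 125 against 1387 ± 172 (SD, n = 4), differed by 0.30 on the log2 scale, the median of genes of its length. Nfil3, which encodes a repressor that opposes DBP at D-boxes, averaged 83.4 ± 16.7 in Khk KO and 54.4 ± 13.8 in WT, and its genotypes overlapped.

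Promoter sequence was read for these genes, since the loop acts through E-boxes. Stretches of 300 bases around the start (RefSeq, GRCm38.p6) were searched for the E-box CACGTG on both strands. Of all 32851 promoters of that length 7.15% held it, and 2 of the 5 clock genes did, Ciart with 3 matches and Per1 with 1. Both are shown 5′ to 3′ with the E-box in capitals. A match is only a run of letters in this window, and binding was not measured.
Ciart, chr3:95882179-95882478, minus strand: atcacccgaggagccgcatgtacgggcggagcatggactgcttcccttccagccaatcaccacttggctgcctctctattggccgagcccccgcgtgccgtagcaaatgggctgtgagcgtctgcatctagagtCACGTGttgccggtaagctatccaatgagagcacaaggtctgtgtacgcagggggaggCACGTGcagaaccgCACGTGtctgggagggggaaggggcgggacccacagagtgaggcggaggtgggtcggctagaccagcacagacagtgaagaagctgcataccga
Per1, chr11:69098699-69098998, plus strand: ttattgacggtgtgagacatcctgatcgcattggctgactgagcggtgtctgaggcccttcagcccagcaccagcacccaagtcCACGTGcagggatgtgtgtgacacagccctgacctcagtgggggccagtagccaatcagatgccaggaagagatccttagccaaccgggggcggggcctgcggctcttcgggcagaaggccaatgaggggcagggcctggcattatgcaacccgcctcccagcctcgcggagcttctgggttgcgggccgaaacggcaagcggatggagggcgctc

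Detoxification genes in the table were nearly all lower in Khk KO. The list held 47 genes of the NRF2 antioxidant programme and of drug metabolism, such as glutathione S-transferases, aldo-keto reductases and carboxylesterases, and 15 of them (31.9%) were in the table. Of these 14 were lower and 1 higher, 4 were called, all 4 as falls, and genotypes did not overlap in 6, beside 45.6% of all table genes. The median log2 fold change was -0.66 beside -0.33 for the whole table, -0.20 with the length trend taken out (13 of 15 lower) and -0.39 without WT replicate 1 (14 of 15 lower). Of the 14 lower members, 12 were highest in WT replicate 1.

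Akr1b8, an aldo-keto reductase that clears reactive aldehydes, read 776, 962, 570.2 and 564 normalised counts in Khk KO and 1802, 1236, 1178 and 2113 in WT. No KO library reached the lowest WT library, and WT replicate 4 rather than replicate 1 was the highest. It fell from 1582 ± 452 to 718 ± 190.1 (SD, n = 4), or by 1.14 on the log2 scale (SE 0.25), with an adjusted p of 0.838 in edgeR's quasi-likelihood test and 0.00290 in the authors' deposited table. Only 4.00% of the 200 genes of similar length lay below it, and with the length trend taken out the log2 fold change was -0.75.

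Gsta3, an alpha-class glutathione S-transferase, read 385, 719, 572 and 739.8 in Khk KO and 1698, 1082, 1063 and 1255 in WT. The genotypes were separate, and WT replicate 1 was the highest. At 4344 bases it is long for this list, its length neighbours had a median of 0.26 on the log2 scale, and its own value of -1.08 ± 0.24 (SE) became -0.91 without WT replicate 1 and -1.11 after removal of the length trend. Cbr3, a carbonyl reductase, fell from 1465 ± 375 to 775 ± 183 (SD, n = 4). Its difference of -0.92 on the log2 scale was -0.73 without WT replicate 1 and -0.46 after removal of the length trend, with a median of -0.53 over genes of similar length. Ces1g, a carboxylesterase that acts on lipids and drugs, fell from 1132 ± 110.3 to 613 ± 206 (SD, n = 4). In Ces1g the WT libraries lay close together, between 1039.7 and 1292, and the log2 fold change of -0.89 was -0.93 without WT replicate 1 and -0.63 after removal of the length trend.

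Members that were not called included close relatives of these. Gsta2 averaged 781 ± 282 in Khk KO and 1654 ± 533 in WT, with separate genotypes and a log2 fold change of -1.08, or -0.91 without WT replicate 1. Gpx2, the epithelial glutathione peroxidase, read 4801, 4967, 2859.8 and 4871 in Khk KO and 13502, 4166, 5557 and 4699.9 in WT. WT replicate 1 was far above the rest, and -0.67 on the log2 scale became -0.14 without it. Gsta1 and Gsta2 are close paralogs whose reads the counting could have split. Ugt1a1, the bilirubin-conjugating enzyme, was the member that was higher, at 1068, 1059, 896 and 1239.9 in Khk KO against 360.3, 784, 862 and 956 in WT, with WT replicate 1 lowest.

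The antioxidant response core TGACNNNGC was searched on both strands in the promoters of the 15 table members, because NRF2 acts through it. It stood in those of 2, Gsta3 and Mgst1, against 12.4% of all 32851 promoters. The promoter of Gsta3, the called gene that holds it, is shown 5′ to 3′ with the match in capitals.
Gsta3, chr1:21240335-21240634, plus strand: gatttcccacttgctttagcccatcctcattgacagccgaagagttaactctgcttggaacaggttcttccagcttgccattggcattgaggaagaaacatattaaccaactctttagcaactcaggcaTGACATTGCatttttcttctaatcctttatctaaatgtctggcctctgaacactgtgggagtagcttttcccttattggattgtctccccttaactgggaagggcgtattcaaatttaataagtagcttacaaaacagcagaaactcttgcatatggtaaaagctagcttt

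Fatty acid oxidation genes in the table were also lower. Of 25 listed genes 4 were present, all lower, with a median log2 fold change of -0.59 that was -0.52 without WT replicate 1 and -0.48 after removal of the length trend. Acot1, an acyl-CoA thioesterase and a target of PPAR alpha, was called at 92.9, 111, 155 and 164 normalised counts in Khk KO and 238, 312, 217 and 264 in WT. All WT libraries exceeded all KO libraries. It fell by 0.98 on the log2 scale (SE 0.21), its neighbours in length had a median of -0.22, and its value was -0.97 with the length trend taken out. Acot2, a close paralog with which reads could be shared, averaged 173 ± 21.2 against 246 ± 49.2 (SD, n = 4). Slc25a20, the carnitine-acylcarnitine carrier, averaged 1922 ± 342 against 2435 ± 194. Genotypes overlapped in both Acot2 and Slc25a20, and neither was called.

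Further falls concerned single genes of unlike function. Asb11, a substrate adaptor of a ubiquitin ligase, read 190.1, 239, 229 and 316 normalised counts in Khk KO and 598, 537, 454 and 406 in WT. The genotypes did not overlap. Against a median of -0.38 over genes of similar length, Asb11 stood at -1.04 ± 0.19 (SE) on the log2 scale, and at -0.83 after removal of the length trend. Spc24, a kinetochore subunit, read 157, 125, 153 and 156 in Khk KO and 163, 358, 355 and 319 in WT. Here WT replicate 1 sat beside the KO libraries, and without it the log2 fold change moved from -1.02 to -1.22, with an adjusted p of 0.0280 in edgeR's quasi-likelihood test. With the length trend taken out Spc24 stood at -0.81. Ptma, which encodes the small acidic nuclear protein prothymosin alpha, fell from 8187 ± 190.2 to 6400.5 ± 141 (SD, n = 4) with little spread in either genotype. Its difference of -0.36 on the log2 scale was smaller than the median of -0.51 of genes of its length, and with the length trend taken out its sign turned, at 0.04.

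Lars2, which encodes mitochondrial leucyl-tRNA synthetase, fell from 8139 ± 1707 to 4684 ± 623 (SD, n = 4). Its values were 4133, 4362, 4687 and 5554 in Khk KO and 10614, 7407, 7796 and 6739 in WT, separate between genotypes and highest in WT replicate 1. At 11089 bases Lars2 is a long gene, whose neighbours in length had a median of 0.34, and only 2.50% of them lay below its log2 fold change of -0.80 ± 0.17 (SE). Without WT replicate 1 its value was -0.64.

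Both short called genes, Gm23935 and Gm24270, carry the same 57 bases. Gm23935 at chr16:11144125-11144181 on the plus strand read 18201, 18131, 20901 and 25719 normalised counts in Khk KO and 69792, 34787, 45920.4 and 31541 in WT. Gm24270 at chr9:56223715-56223771 on the minus strand read 655, 534, 604 and 800.0 in Khk KO and 2024, 1082, 1205 and 886 in WT. In both the WT libraries lay above the KO libraries and WT replicate 1 was the highest, and without it the log2 fold changes were -0.85 for Gm23935 and -0.71 for Gm24270. Their annotated transcripts (GENCODE M21, GRCm38) are identical, with a G and C content of 73.7%, so reads cannot be assigned to either with certainty. Which RNA these reads, and those of Lars2, came from was not tested. The sequence is printed because 3 annotated genes carry it in full and 6 share a run of 20 bases with it.
Gm23935 and Gm24270: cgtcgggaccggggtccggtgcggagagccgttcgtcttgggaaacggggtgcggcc

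Table members of several short, abundant housekeeping families were lower in Khk KO, and most of them were highest in WT replicate 1. Of 85 cytosolic ribosomal protein genes 64 (75.3%) were in the table, all 64 lower, with 2 called and a median log2 fold change of -0.40. Genotypes did not overlap in 57 of the 64, beside 45.6% of all table genes, and 58 were highest in WT replicate 1. With the length trend taken out 42 of the 64 were lower and the median was -0.06, and without WT replicate 1 all 64 were lower with a median of -0.21. The called members were Rpl17, at 1017 ± 94.1 in Khk KO and 1803 ± 405 in WT (SD, n = 4), and Rps27rt, at 507 ± 45.5 and 1091 ± 492. Their log2 fold changes of -0.83 and -1.10 were -0.42 and -0.77 with the length trend taken out. Rps27rt is a retrotransposed copy of Rps27, and ribosomal protein genes have many processed copies, so both counts are uncertain.

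Mitochondrial ribosomal proteins and respiratory chain genes, whose products translate mitochondrial messages and carry electrons to oxygen, were also lower where they were in the table, with more overlap between the genotypes. Of 78 mitochondrial ribosomal protein genes 29 were in the table, all lower and all highest in WT replicate 1, with a median log2 fold change of -0.46, or -0.22 without that library and -0.17 after removal of the length trend. Genotypes did not overlap in 8 of the 29. Of 98 respiratory chain subunit and assembly genes 17 were in the table, again all lower and all highest in WT replicate 1. Their median moved from -0.61 to -0.13 with the length trend taken out, with 17 of 17 still lower, and to -0.17 without WT replicate 1. Genotypes did not overlap in 1 of the 17, against that share of 45.6%, namely Sdhaf1, an assembly factor of complex II, at 67.6 ± 13.8 against 135 ± 79.6 (SD, n = 4), with 254 in WT replicate 1 and a log2 fold change of -0.99 that was -0.49 without that library.

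Of 22 spliceosomal Sm and LSm genes 13 were in the table, all lower and all highest in WT replicate 1, with a median of -0.51. It was -0.23 without that library and -0.24 after removal of the length trend (10 of 13 lower). Snrpe, the Sm protein E gene, was called at 325, 314, 283 and 191 in Khk KO and 843, 463, 447 and 534 in WT, and its log2 fold change of -1.04 became -0.79 without WT replicate 1 and -0.56 with the length trend taken out. At the other end of the length range, 5 table genes for chromatin factors, with a median length of 14273 bases, were all higher with a median of 0.42 and all lowest in WT replicate 1. With the length trend taken out their median was 0.05. Kmt2e had the largest value among them, 0.74, and 0.46 after that step.

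Immunoglobulin genes formed the largest block of rises. Plasma cells of the lamina propria secrete antibody whose heavy and light chains each begin with 1 of many variable segments, so reads of a segment follow the clones that chose it. The table held 48 variable segments, of which 23 of 24 kappa, 19 of 22 heavy and 2 of 2 lambda segments were higher in Khk KO. The called ones were 9 kappa, 3 heavy and 1 lambda segment, and the constant gene Ighg3 was called with them. Median log2 fold changes were 2.08 for kappa and 2.06 for heavy segments, the latter 1.81 without WT replicate 1. With the length trend taken out the medians were 2.41 for kappa and 2.33 for heavy segments. Summed over the 48 segments, normalised counts lay between 20721 and 39807 in the KO libraries and between 7971 and 16692 in the WT libraries, in a set that the table's selection by p had chosen.

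Called segments differed in which library carried them. Igkv4-58 (chr6:69500254-69500786, minus strand) averaged 153 ± 89.8 in Khk KO, between 37.0 in replicate 1 and 246 in replicate 2, and 12.5 ± 2.56 in WT (SD, n = 4). The log2 fold change of 3.58 ± 0.55 (SE) had an adjusted p of 0.617 in edgeR's quasi-likelihood test, 0.0181 without KO replicate 1, and 3.89e-10 in the authors' deposited table. Igkv4-59 read 1204, 942, 1695 and 306 in Khk KO and a narrow 243, 246, 264 and 259 in WT, and its edgeR adjusted p of 0.838 became 0.0343 without KO replicate 4. In both genes a single KO library sat nearer to WT than the rest. Igkv13-84 ranged from 70.8 to 344 in Khk KO and from 8.23 to 29.3 in WT, and Igkv4-79 averaged 75.1 ± 30.3 against 11.9 ± 7.70 (SD, n = 4), both without overlap.

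Igkv14-126 depended on other libraries, with 311 and 143 normalised counts in KO replicates 2 and 4 and only 21.1 and 24.7 in KO replicates 1 and 3, against 5.15 to 14.1 in WT. Igkv4-68 showed yet another split, with 848 and 1057 in KO replicates 1 and 4 and 86.5 and 147 in KO replicates 2 and 3. Ighv1-7 ranged from 47.3 in KO replicate 3 to 689 in KO replicate 4, against 4.12 to 39.6 in WT, and Igkv15-103 from 542 to 3427, the latter in KO replicate 2, against 81.1 to 297. In each of these the KO libraries lay above the WT libraries. Igkv1-117 was the called gene whose genotypes overlapped, since KO replicate 3 at 2085 lay just under WT replicate 2 at 2102. Over the 13 called segments the highest KO library exceeded the lowest by a median of 5.53-fold (1.32 to 14.7), and in WT by 3.55-fold (1.09 to 16.9).

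Iglv1, the lambda segment, varied least over the KO libraries, at 3844, 4475, 3891 and 5072 in Khk KO and 1939, 1003, 1825 and 2877 in WT. KO replicates 1 to 4 held the highest value of 2, 4, 3 and 4 of the 13 called segments. The 9 called kappa segments were spread over chr6:67896172-69649363, and segments of a family are alike enough for reads to be misassigned between them. Among the 20 listed B and plasma cell markers 2 were in the table, neither called. These were Ighm, the IgM heavy chain, at 502 ± 179 against 343 ± 64.9 (SD, n = 4), and Mzb1, a plasma cell chaperone, at 732 ± 75.4 against 530.4 ± 149. Mzb1 shares 57.2% of its exon bases with the gene SPATA24 on the same strand. The part of plasma cell number in the segment results was not tested.

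**Figure D4:**
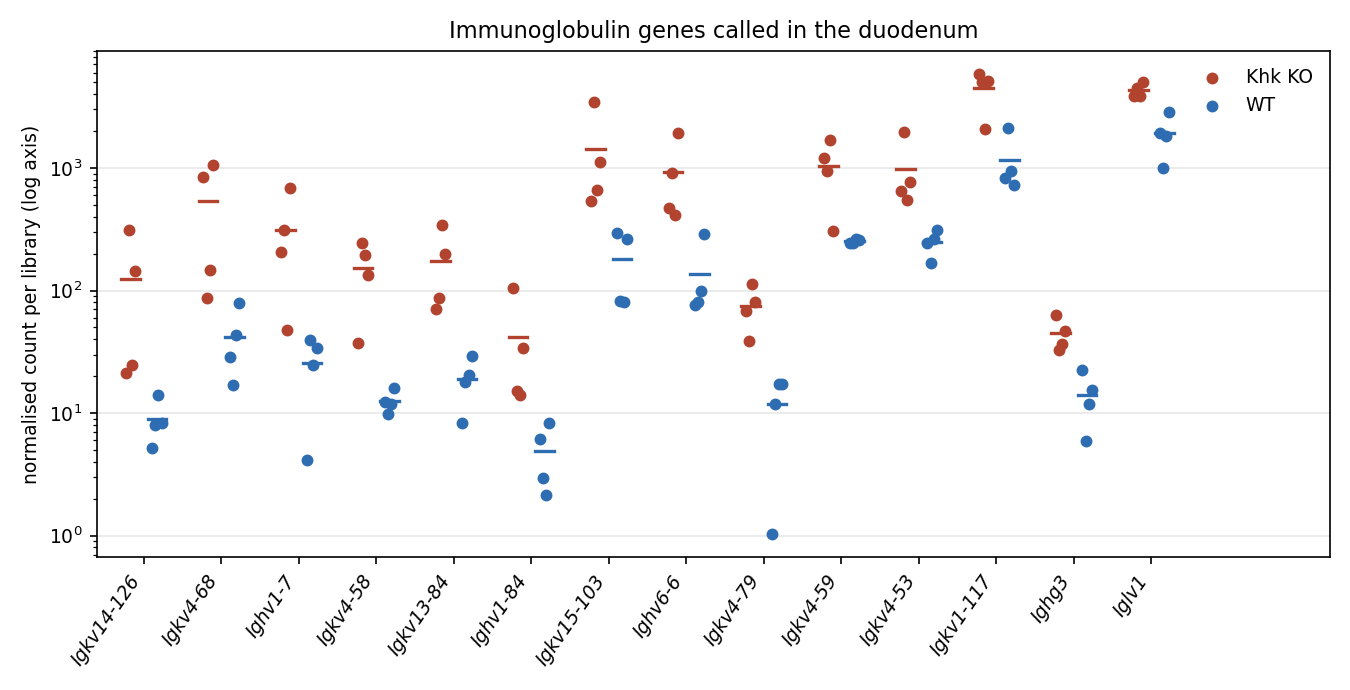
Normalised counts (vertical log axis) of the 14 called immunoglobulin genes, with a dot per library and a bar at the mean of 4 libraries, red for Khk KO and blue for WT. KO dots spread widely within a gene, as in Igkv14-126 from 21.1 to 311, while Iglv1 is compact, from 3844 to 5072 in KO and 1003 to 2877 in WT.

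Around fructose itself few genes were in the table. Of the 10 listed genes of fructose uptake and breakdown other than Khk, 2 were present and none was called. Slc2a7, which encodes the transporter GLUT7, read 1243, 1830.1, 1515 and 1431 in Khk KO and 1135, 1048, 961 and 1108 in WT, without overlap. The difference of 0.50 on the log2 scale exceeded that of 89.0% of genes of similar length and was 0.85 after removal of the length trend. Akr1b3, the aldose reductase that feeds the polyol pathway, averaged 497 ± 42.4 against 633 ± 83.7 (SD, n = 4), and -0.35 on the log2 scale became -0.62 after removal of the length trend. The fructose transporter gene Slc2a5 and the downstream gene Tkfc were not in the table, and their levels were not examined.

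Carbohydrate-response and fat synthesis genes did not move together. Of 22 listed genes 4 were in the table, 2 higher and 2 lower, and none was called. Mlxipl, which encodes the sugar-sensing factor ChREBP, read 2676, 2350.2, 3106 and 3169 in Khk KO and 2199.7, 2282, 2077 and 2519.7 in WT, with the genotypes overlapping. Txnip, a well known ChREBP target, was higher at 6232 ± 750.5 against 4511 ± 915 (SD, n = 4). The genotypes were barely separate, with KO replicate 1 at 5188 and WT replicate 3 at 5172. Txnip shares 19.4% of its exon bases with a gene on the opposite strand. Acacb, the acetyl-CoA carboxylase of the mitochondrial surface, was lower at 155 ± 24.7 against 243 ± 46.2, and its log2 fold change of -0.65 contrasted with a median of 0.34 for genes of its length. G6pc, the glucose-6-phosphatase gene, averaged 232 ± 65.6 against 427 ± 182, and its -0.88 became -0.56 without WT replicate 1. None of the 24 listed glycolysis and gluconeogenesis genes was in the table (0 of 24, where 9.16% of all adjusted genes were).

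Iron handling, the stated interest of the series, gave no called gene in the duodenum, where 0.224% of all adjusted genes were called. Of 48 listed genes 6 (12.5%, beside 9.16% of all adjusted genes) were in the table, 5 lower and 1 higher. Among the 5 lower genes, 4 were highest in WT replicate 1. The median log2 fold change of the 6 was -0.64, -0.33 without that library and -0.34 with the length trend taken out. Neither the iron importer gene Slc11a2, the exporter gene Slc40a1, the ferric reductase gene Cybrd1 nor the transferrin receptor gene Tfrc was in the table, so their levels were not examined.

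Hmox1, whose product frees iron from haem, read 63.4, 129, 97.9 and 70.7 in Khk KO and 364, 139, 151 and 179 in WT. The genotypes were separate by a narrow gap, and the log2 fold change of -1.20 was -0.78 without WT replicate 1 and -0.76 with the length trend taken out. Ftl1, the ferritin light chain gene, read 13972, 23205, 20607 and 18244 against 52724, 25277, 25469.6 and 21448, with WT replicate 1 far above all others, and -0.72 on the log2 scale became -0.34 without it. Alad, the haem synthesis enzyme that makes porphobilinogen, averaged 1456 ± 235 against 2145 ± 662 (SD, n = 4), with -0.56 on the log2 scale that was -0.32 without WT replicate 1. Flvcr1, a haem exporter gene, differed by -0.37, or -0.42 without WT replicate 1. Slc25a37, the mitochondrial iron importer mitoferrin, was higher at 949 ± 115 against 714 ± 95.2, without overlap. Steap4, a metalloreductase gene, rested on 92.6 counts in WT replicate 1, with 3.25 to 19.8 in the other WT libraries and 5.24 to 15.1 in Khk KO. Ftl1 shares 26.5% of its exon bases with a gene on the opposite strand, and the strand setting of the counting was not given in the sources used here.

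Blood-cell genes were lower beside these. Of 9 listed erythroid genes 4 were in the table, the globins Hba-a1, Hba-a2, Hbb-bs and Hbb-bt, all lower and none called. Hbb-bt read 46.5, 31.1, 18.3 and 23.6 in Khk KO and 107, 113, 55.2 and 46.7 in WT, barely separate. Hba-a2 averaged 18.9 ± 9.77 against 58.9 ± 31.9 (SD, n = 4), also without overlap. In the more abundant Hba-a1 and Hbb-bs the genotypes overlapped. Hba-a1 read 501, 286, 159 and 323 in Khk KO and 682, 875, 411 and 384 in WT. The median log2 fold change of the 4 was -1.19, -1.06 without WT replicate 1 and -0.74 with the length trend taken out. The globin pairs are near-identical, so their reads are shared. Whether residual blood bears on the haem genes was not tested.

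Enterocyte function genes pointed in different directions. Brush-border digestion and uptake genes in the table (3 of 22) were all higher and not called, namely the sucrase-isomaltase gene Sis, the neutral amino acid transporter gene Slc6a19 and the cystine transporter subunit gene Slc7a9. Sis read 31472, 39484, 37456 and 44671 in Khk KO and 28685, 33039, 34698 and 28881 in WT, with the genotypes overlapping. At 0.29 on the log2 scale Sis lay under the median of 0.34 of genes of its length, and it was at 0.06 after removal of the length trend. Apoa1 and Apoc3, apolipoprotein genes of the chylomicron, were lower, at -0.83 and -0.63, and -0.42 and -0.19 without WT replicate 1.

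Secretory cell types differed in sign. Hormone genes of enteroendocrine cells were lower, 4 of the 22 listed and none called. Cck, the cholecystokinin gene, read 1013, 1740.2, 1374 and 1237 in Khk KO and 2431, 1818, 2263 and 1593 in WT. The genotypes overlapped, as they did for Sct, Gip and Chga, which encode secretin, the incretin GIP and the granule protein chromogranin A. The median of the 4 was -0.62, against -0.57 for genes as short as Sct and Gip, and it was -0.18 after removal of the length trend. Of the 4, 3 were highest in WT replicate 1, and without that library the median was -0.32.

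Paneth cell genes, which encode antimicrobial peptides and enzymes of the crypt base, behaved otherwise with respect to WT replicate 1. The 3 table members of 16, Defa21, Defa22 and Pla2g2a, were lower with a median of -0.99, and none was highest in that library. Without it the median was -1.23, and with the length trend taken out it was -0.69. Pla2g2a, annotated as a polymorphic pseudogene, was the member whose genotypes did not overlap, at 43.5 ± 9.41 in Khk KO and 77.6 ± 18.9 in WT (SD, n = 4). Defa22 averaged 58.4 ± 27.0 in Khk KO and 124 ± 57.7 in WT (SD, n = 4), with WT replicate 1 at 48.4 the lowest WT library, and the near-identical defensin genes share reads. Both goblet cell members of the table (2 of 11), the mucus protein gene Clca1 and the secretory lineage factor gene Atoh1, were higher at 0.39 each with overlapping genotypes. The stem and progenitor genes Ascl2 and Slc12a2 (2 of 11) were lower, Ascl2 at 73.9, 23.5, 51.6 and 53.7 against 90.6, 135, 81.1 and 107 without overlap. The Ascl2 difference of -1.03 on the log2 scale was -1.10 without WT replicate 1 and -0.65 with the length trend taken out. Genes of similar length to Ascl2 had a median of -0.48. All 4 cell cycle genes in the table (of 32 listed), Birc5, Ube2c, Cdk1 and Ccna2, were lower too, and none was called. Genotypes overlapped in Cdk1 and Ccna2. Their median of -0.39 over the 4 genes was -0.35 after removal of the length trend. The median length of the 4 was 3742 bases, and the median of the length quintile around it went from -0.33 to -0.17. Over the whole table, which mixes all lengths, the median went from -0.33 to -0.04.

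Listed myeloid genes in the table were higher, listed interferon response genes mostly so, and none of these was called. Of 20 macrophage and dendritic cell genes 4 were in the table, all higher with a median of 0.50, or 0.61 with the length trend taken out and 0.35 without WT replicate 1. Adgre1, which encodes the macrophage marker F4/80, read 210.2, 218, 214 and 211 in Khk KO and 69.0, 148, 160.1 and 196 in WT. The KO libraries were nearly alike and above every WT library, of which replicate 1 was the lowest. Clec9a, a marker of cross-presenting dendritic cells, averaged 34.9 ± 2.64 against 21.2 ± 3.90 (SD, n = 4).

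Guanylate-binding proteins, interferon-induced GTPases that act on intracellular pathogens, had 4 of 10 genes in the table, all higher with a median of 0.66 and all lowest in WT replicate 1. The median was 0.45 without that library and 0.53 with the length trend taken out. Gbp4 read 233, 205, 205 and 219 in Khk KO and 105, 170.3, 108 and 139 in WT, and its log2 fold change of 0.72 was 0.63 without that library and 0.51 with the length trend taken out. Of 34 interferon response genes 4 were in the table, 3 higher (Gbp4, Mx1 and Stat2) and 1 lower (Ifi27).

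**Figure D5:**
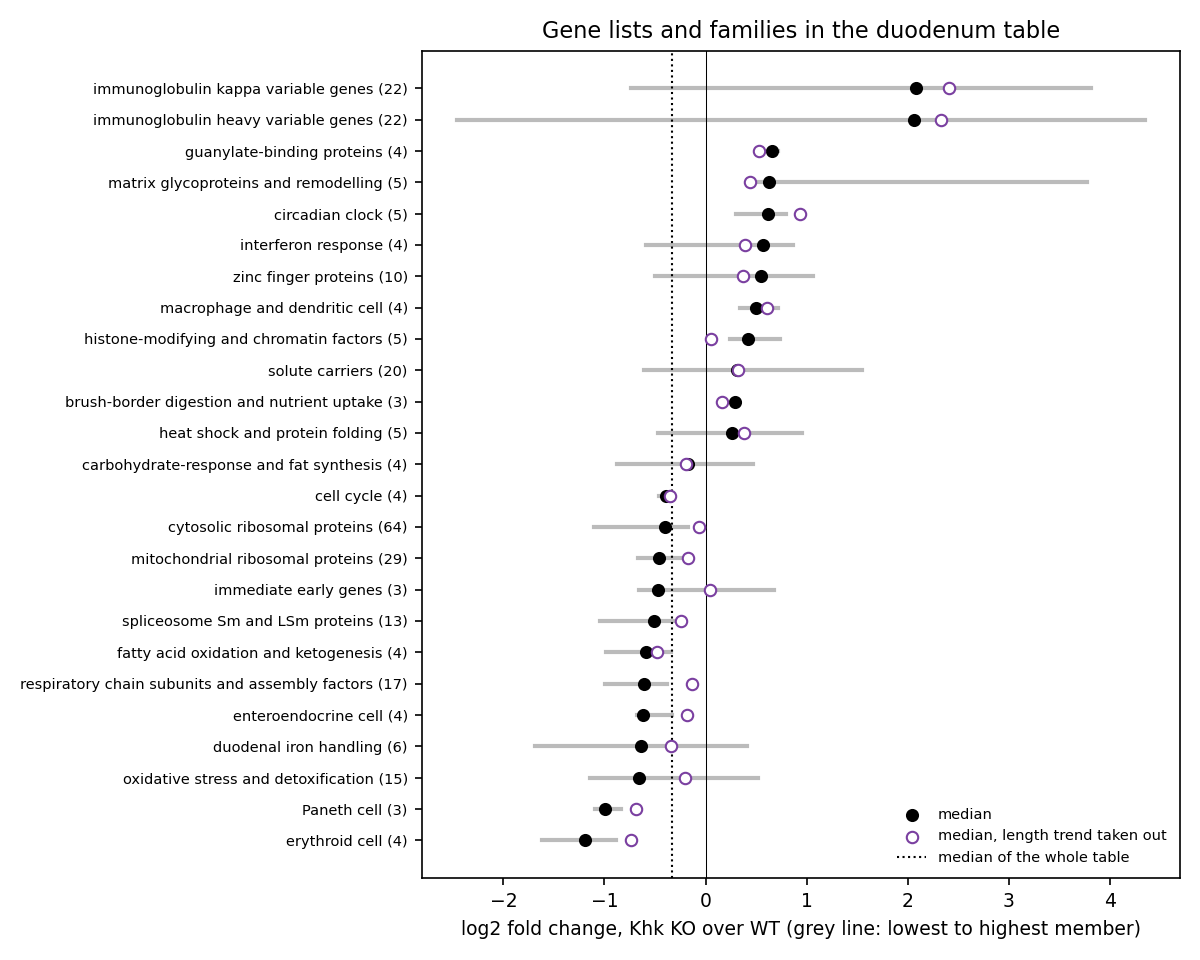
Median log2 fold change of lists and families with at least 3 fitted genes in the table (black dots, number of genes in brackets), the median with the length trend taken out (open circles), and the span from lowest to highest member (grey lines). The dotted line marks the whole-table median of -0.33; ribosomal, respiratory chain and enteroendocrine medians move toward 0 with the length trend taken out, while clock and immunoglobulin medians move upward, clock from 0.62 to 0.93.

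Markers of other organs and of several cell types of the duodenal wall were nearly all missing from the table. The levels of the missing genes were not examined. None of the listed Brunner gland, stomach, ileal, hepatocyte, adipocyte, tuft or mast cell genes was among the 1430, and of 23 pancreatic acinar genes only Spink1 was. Spink1, a trypsin inhibitor, read 9533 in WT replicate 1 and 3042 to 4609.9 in the other 7 libraries. The single enteric neuron gene was Uchl1 at 318 in WT replicate 1 against 91.9 to 143 elsewhere.

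Coding genes averaging at least 100 counts, with separate genotypes, were ranked by the authors' fold change. The 10 with the largest positive values were Tnc, Tns4, Ccr9, Nr1d1, Hnf4g, Garem1, Gprin3, Gbp4, Gbp5 and Zfp142. Tns4, an adhesion adaptor, averaged 664 ± 267 in Khk KO and 358 ± 38.8 in WT (SD, n = 4), with a log2 fold change of 0.89 that was 0.91 without WT replicate 1. Ccr9, the receptor that brings lymphocytes to the small intestine, read 187, 155, 176 and 153 in Khk KO and 51.5, 74.2, 89.8 and 151 in WT, a near overlap with WT replicate 4. Hnf4g, an enterocyte transcription factor, read 3461, 4017, 3708 and 5874 against 848, 2839, 2854 and 3276, and its log2 fold change of 0.80 was 0.51 without WT replicate 1.

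The 10 with the largest negative values by the same rule were Khk, Mt1, Marc1, Ppih, Ltc4s, Hmox1, Akr1b8, Hsd11b1, Rps27rt and Gsta2. Several of these were far higher in WT replicate 1 than in any other library. Mt1, the metal-binding metallothionein gene, read 3908, 4543, 5317 and 4149 in Khk KO and 30073, 8785, 10397 and 5412 in WT. The genotypes were separate, and the log2 fold change of -1.61 was -0.87 without WT replicate 1 and -0.98 with the length trend taken out. Hsd11b1, the enzyme that regenerates active glucocorticoid, read 348 in WT replicate 1 and 68.2 to 70.4 in the other WT libraries, beside 54.9 to 68.1 in Khk KO, so its -1.12 shrank to -0.12. Marc1, a molybdenum-containing reductase gene, behaved alike, from -1.44 to -0.53.

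The called duodenal genes were looked up in the tables of the other organs, which had been normalised separately and were not tested against this one. Of the 35, 23 (65.7%) stood among the 2413 genes of the jejunum table, all 23 with the same sign and 8 of them called there, out of 75 jejunal calls. The ileum's, with 5187 genes, held 13 (37.1%), all 13 with the same sign, 9 called out of 2505. The liver's, with 6375 genes, held 13, 12 with the same sign, 12 called out of 4364. Serpina3f was the exception, with a log2 fold change of -0.68 in the liver in the authors' deposited table. Khk itself is included in all of these counts, and most genes of the liver table were called there. The share of all duodenum table genes found in each organ was not counted.

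Several genes recurred with a varying size. Tnc averaged 579 ± 173 in Khk KO and 166 ± 188 in WT in the jejunum (SD, n = 4), with overlapping genotypes, and 12.6 ± 8.71 against 0.463 ± 0.552 in the liver. Gprin3 had log2 fold changes of 0.79 in the jejunum, 1.16 in the ileum and 1.27 in the liver in the authors' deposited table. Spc24 was lower in all 3, at -1.13, -1.13 and -0.79 on the log2 scale in the authors' deposited table. Gsta3 was lower in the jejunum (-0.74) and the liver (-0.45) there, and Nr1d1 was higher in the jejunum (0.42) in the authors' deposited table. Whether organs share mice is not stated, so these are not independent repeats.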

How the data were processed

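Polyadenylated RNA of the duodenum was sequenced for 4 Khk KO and 4 WT male mice. Per the submitters' processing notes, reads were aligned with HISAT2 2.0.5 to GRCm38 (mm10). The counting tool, strand setting and statistical test were not given in the sources used here, and the labels name both directional and non-directional chemistry. Per the file headers, the authors deposited for each gene the raw read count of each library, a normalised signal (the count divided by a size factor per library, 0.764 to 1.43), FPKM, a log2 ratio of the genotypes, an unadjusted p-value and an adjusted p-value, along with gene length. Each library's whole depth is not in the table; totals implied by the deposited counts, FPKM and size factors were 15691175 to 29475414. Deposited gene positions equalled GENCODE M21 for 96.0% of genes. FPKM served only that purpose.

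Genes are called where the authors' adjusted p is under 0.05. Steps between ranked p-values showed adjustment over 15615 genes. The main refit was edgeR 4.0.16 (quasi-likelihood, filterByExpr) in R 4.3.3 with the authors' size factors and without a replicate block. Benjamini-Hochberg adjustment was over 15615 genes. As the table is selected by p, its dispersion and length trends come from selected genes. Alternatives were TMM, DESeq2 1.42.0 size factors and test, limma 3.58.1 with voom, no filter, a replicate block, a lowess curve per library on log2 length (span 0.5, genes with a mean of at least 10, pseudocount 1) taken out as an offset, and leaving out each library. P-values measure only the spread between these libraries.

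Same-numbered KO and WT libraries did not deviate together (correlations -0.27, -0.15, 0.00 and 0.23), so the numbers were not taken to pair them. Lists (43) and families (12) and all members were chosen with earlier results of these data known, and they are described by counts and medians with no set test. Genes named in the text were Khk, all called genes, the 10 largest rises and 10 largest falls with a mean of at least 100 and separate genotypes, and up to 5 genes per list with the smallest p in the authors' table. Other members named (Ugt1a1, Gpx2, Gsta1, Mgst1, Flvcr1, Sdhaf1, Kmt2e, Slc5a4a, Slc5a4b, Slc6a4, Slc36a1 and zinc finger genes) were chosen after their values were seen. Sequences are from RefSeq and GENCODE M21.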

Additional observations from a re-analysis of the deposited data

Results flagged for a closer look

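In 242 groups of 4 libraries (each named gene in each genotype), a library whose gap to its nearest neighbour was too large a part of the group's range by Dixon's criterion was marked, which chance alone does in about 1 group in 20. This marked 15, of which 7 were WT replicate 1. Those 7 normalised counts were 427 for Marc1, 348 for Hsd11b1, 52724 for Ftl1, 3131 for Alad, 3096 for Hspe1, a mitochondrial chaperone, 9533 for Spink1 and 318 for Uchl1, each above the other WT libraries.

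The other WT values were 2102 for Igkv1-117 in replicate 2 (high), 309 for Mzb1 in replicate 2 (low) and 288 for Ighv6-6 in replicate 4 (high). In Khk KO they were 1971 for Igkv4-53 in replicate 2 (high), 877 for Rpl17 in replicate 1 (low), 125 for Spc24 in replicate 2 (low), 308 for Phgdh, an enzyme of serine synthesis, in replicate 2 (high) and 109 for Dusp2, a phosphatase gene, in replicate 3 (high). No cause of these values was tested.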

How the results depend on the processing

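The edgeR count of 1 called gene was 30 with DESeq2, 50 with DESeq2 without WT replicate 1 (chosen after seeing the data), 2 with the length trend taken out (Khk and Tnc), 0 with the replicate block, and 0 to 3 over the fits that each left out 1 library, with Igkv4-58 added without KO replicate 1, Igkv4-59 without KO replicate 4, and Tnc and Spc24 without WT replicate 1. At an unadjusted p under 0.05, 476 genes passed in edgeR with the block. The log2 fold change of Khk in the duodenum was -4.34 with the replicate block (edgeR adjusted p 0.0902) and -4.60 to -4.06 over the fits that each left out 1 library, losing its call without KO replicate 2 (edgeR adjusted p 0.0727). The correlation with length was 0.60 for genes with a mean of at least 100.

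Over 120 other named genes and 16 alternative fits, 8 of 1920 values changed sign, all with the length trend taken out, without and with the replicate block: Ptma at 0.04 and 0.06, Reg4 at 0.11 and 0.12, Hspe1 at 0.01 and 0.02, and Ier3 at 0.04 and 0.03. Cytosolic ribosomal proteins lower in Khk KO were 42 in place of 64 with that trend taken out. TMM moved the table's median by 0.15, DESeq2's size factors by 0.17 and the length curve by 0.29, and neither scaling changed the sign of any list member. The causes were not tested. Genes near 10 counts, such as Ighv1-84 in WT, are limited by depth.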

Other observations

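Solute carriers, the membrane transporters that give the duodenum its absorptive role, were in the table for 20 of 338 genes (5.92%, beside 9.16% of all adjusted genes). Of the 20, 15 were higher and 5 lower, and none was called, with a median log2 fold change of 0.31 that was 0.28 without WT replicate 1 and 0.32 after removal of the length trend. Slc6a4, the serotonin transporter gene, read 973, 1181, 1029.7 and 1163 normalised counts in Khk KO and 858, 922, 804 and 813 in WT, without overlap. Slc36a1, a proton-coupled amino acid transporter gene, averaged higher by 0.72 on the log2 scale, with overlapping genotypes. The close paralogs Slc5a4a and Slc5a4b, members of the sodium-glucose cotransporter family, lay on opposite sides. Slc5a4a read 825, 1793, 1721 and 1451 in Khk KO and 943, 711, 1079 and 881 in WT, with KO replicate 1 among the WT values. Slc5a4b read 236, 695, 599 and 626 in Khk KO and 699, 867, 859 and 859 in WT, without overlap and again lowest in KO replicate 1. Reads could be shared between the pair, so their values are uncertain.

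Heat shock genes, whose products refold proteins, were higher in 4 of the 5 table members (of 31 listed), none called, with a median of 0.26 that was 0.38 with the length trend taken out. Hsph1 read 327, 349.6, 839 and 1282 in Khk KO and 339, 298, 333 and 472 in WT, so that KO replicates 3 and 4 were high and KO replicates 1 and 2 lay among the WT values. Hspa8 was also highest in those KO libraries, at 19983 and 23983 beside 14101 to 17235 in the other 6. Lymphatic and lymphocyte markers in the table were Lyve1, a receptor of lymphatic endothelium, at 126, 110.1, 91.5 and 93.0 against 87.5, 74.2, 71.4 and 63.4 without overlap, and the granzyme gene Gzmb, higher by 0.43 on the log2 scale with overlap. Of 394 zinc finger genes 10 were in the table, 8 higher and 2 lower. The largest difference among them, 1.06 for Zfp641, rested on means under 20 normalised counts.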
